A study of Rattus norvegicus with 12 samples.

Results

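Partial bladder outlet obstruction was compared with a sham operation in the rat prostate, in rats that received vehicle only. The comparison uses 6 of the 12 arrays of the series, chosen by their titles: the 3 replicate arrays of obstruction/vehicle and the 3 of sham/vehicle. All rats were males of 10 weeks. The obstruction/vehicle rats had a rubber ring tied around the proximal urethra with silk and received 0.1% Tween 80 2 times a day for 5 days from the day after surgery. The sham/vehicle rats had a sham operation and the same vehicle schedule, which began 5 days after surgery, so that obstruction and time since surgery cannot be told apart. Prostates were taken on day 6 of that schedule, 2 h after the last dose, from 5 or 6 animals per group. RNA came from tissue pooled within a group, and the replicates are called biological in the labels, so the p-values below measure the spread between arrays and not between animals. Every array carried its group's RNA in Cy5 and sham/vehicle RNA in Cy3, with no dye swap. Per the labels, 300 ng of obstruction/vehicle and 1500 ng of sham/vehicle total RNA were labelled. The sham/vehicle arrays thus held sham/vehicle RNA in both channels. Their ratios are balanced by design and do not show how strongly a gene was expressed there. The unit throughout is the log2 ratio of Cy5 to Cy3, and a difference is the obstruction/vehicle mean minus the sham/vehicle mean, given with its standard error.

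The prostate is a gland of secretory epithelium within a fibromuscular stroma, and it surrounds the urethra next to the seminal vesicles, the bladder neck and the striated sphincter. A blocked outlet raises pressure in the bladder and urethra, and surgery at the urethra wounds the tissue around it. Wounded tissue releases chemokines that draw neutrophils and then monocytes, and later lays down collagen.

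Inflammatory, macrophage, matrix and low-oxygen genes were broadly higher in obstruction/vehicle than in sham/vehicle, and many but not all skeletal muscle genes were lower. Genes of prostate secretion went both ways. Of 36102 probes kept, 4631 were higher in obstruction/vehicle and 3092 lower at an adjusted p under 0.05 in limma (Benjamini-Hochberg), which is 12.8% and 8.56% of the probes. Among them, 1677 were at least 2-fold higher and 276 at least 2-fold lower (4.65% and 0.765%). Higher probes made up 60.0% of the called probes, 83.6% with median centring in place of loess and 40.9% with the scanner software's own ratio, so the balance of small changes depends on the scaling, while rises outnumbered falls at 2-fold or more under each of these. With 1 probe standing for each of 17101 named genes, 15.5% of genes were higher and 8.83% lower, 6.19% and 0.871% at 2-fold or more, and the median difference over all genes was 0.00. List counts below are to be read beside these shares of genes. The groups' arrays did not overlap for 34.3% of the probes.

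Cy5 was well above background at 78.4% to 88.4% of spots on the obstruction/vehicle arrays and at 77.0% to 85.6% on the sham/vehicle arrays. Replicate 1 of both groups lay on a slide that was scanned on another day than the slides of replicates 2 and 3 and was dimmer in Cy5. Position on the slide followed the group, and these cannot be told apart. The sham/vehicle RNA in Cy3 should read alike on all 6 arrays, and its level differed for 144 probes, 130 of them higher on the obstruction/vehicle arrays. All 60 probes with at least 2-fold higher Cy3 there were also at least 2-fold higher in the ratio. For such genes the ratio gives a smaller difference than Cy5 alone, and Cy5 alone is given beside the ratio below for each named gene whose Cy3 differed by 2-fold or more.

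**Figure D1:**
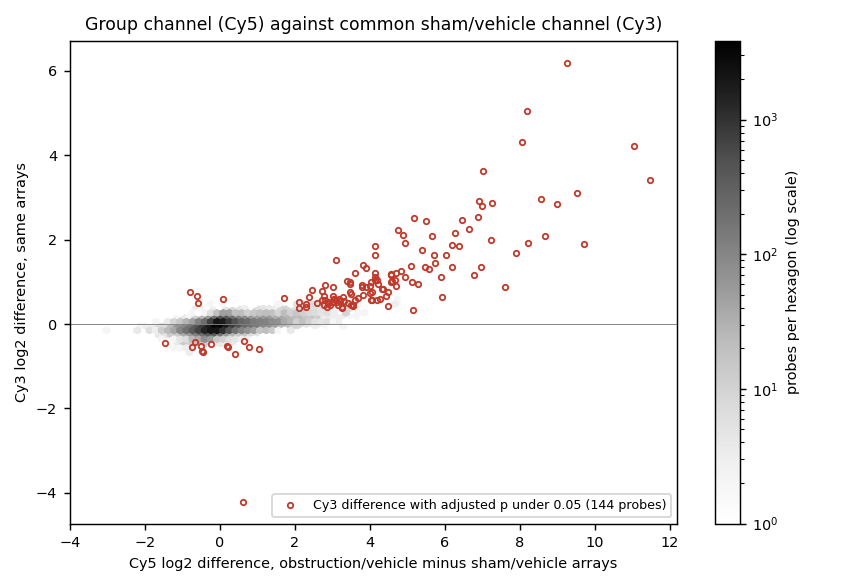
Log2 difference of the Cy5 level (horizontal) and of the Cy3 level (vertical) between obstruction/vehicle and sham/vehicle arrays, for 36102 probes shaded by their number per hexagon. The 144 circled probes have a Cy3 difference with adjusted p under 0.05, and 130 of them lie above 0, mostly where the Cy5 difference is large.

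Genes of neighbouring tissues differed between the pooled samples. Prostate RNA was plain in both groups: Msmb, which encodes a major prostate secretory protein, had net Cy5 intensities of 58685, 308660 and 296162 on the obstruction/vehicle arrays, against 119220, 457445 and 495251 on the sham/vehicle arrays. Of the seminal vesicle and coagulating gland list, 9 of 11 measured genes were higher in obstruction/vehicle and 0 lower, with a median difference of 4.83. Cy5 alone gave 8 higher and a median of 8.68, and the replicate block called 1 lower. The list median is the value of Svs4, whose Cy3 level differed between the groups and whose Cy5 was partly saturated. Svs5, a seminal vesicle secretory protein, had log2 ratios of 7.93, 8.17 and 8.15 on the obstruction/vehicle arrays, against -0.14, 0.04 and 0.20 on the sham/vehicle arrays. It had the largest difference of the named genes at 8.05 ± 0.27 (adjusted p = 8.84e-10 by limma), read at chromosome 3, 155171865 to 155171924 of rn3, and 2 of the 3 obstruction/vehicle spots were saturated in Cy5, whose difference alone was 11.47.

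Svs5 was not low in every sham-operated pool. Its net Cy5 intensity was 269311, 596213 and 590149 in obstruction/vehicle and 40.7, 107 and 123 in sham/vehicle, but 56071, 348781 and 334614 in the sham-operated rats given Eviprostat, a plant-based prostate drug, and 106, 660.3 and 718 in the obstructed rats given it. Svs3a, Svs6 and Serpina5, the protein C inhibitor, were likewise bright in obstruction/vehicle and sham/Eviprostat and dim in the other groups. Cy5 alone gave 9.52 for Svs3a and 11.04 for Svs6, against ratio differences of 6.42 and 6.81. Net Cy5 of Svs6 was 596202 and 590140 on obstruction/vehicle replicates 2 and 3, as high as the saturated Svs5 spots. Its differences may therefore be limited by saturation. The urothelial plaque gene Upk3a rose by 3.63 ± 0.12 (adjusted p = 6.36e-10 by limma; 4.68 from Cy5 alone), with net Cy5 of 4802, 15868 and 19610 in obstruction/vehicle and 123, 467 and 575 in sham/vehicle. Its partner Upk1b (3.11) and Krt7, a keratin of urothelium and ducts (3.05, and 5.50 from Cy5 alone), rose as well, and 6 of 9 urothelial genes were higher. Fewer or more cells of a type and less or more RNA per cell cannot be told apart in these pools, and the part that neighbouring tissue plays in the results below was not tested.

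**Figure D2:**
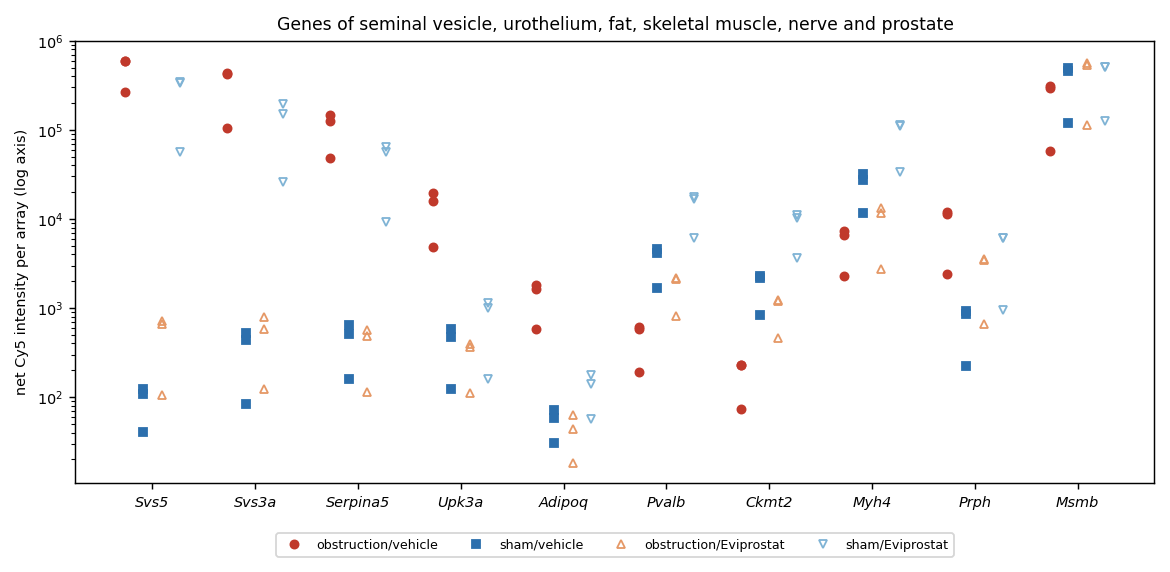
Net Cy5 intensity (log axis) of 10 genes of seminal vesicle, urothelium, fat, skeletal muscle, nerve and prostate on each array of the 4 groups of the series, filled for the vehicle groups. Svs5, Svs3a and Serpina5 are high in obstruction/vehicle and low in sham/vehicle, and also high in sham/Eviprostat.

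**Figure D3:**
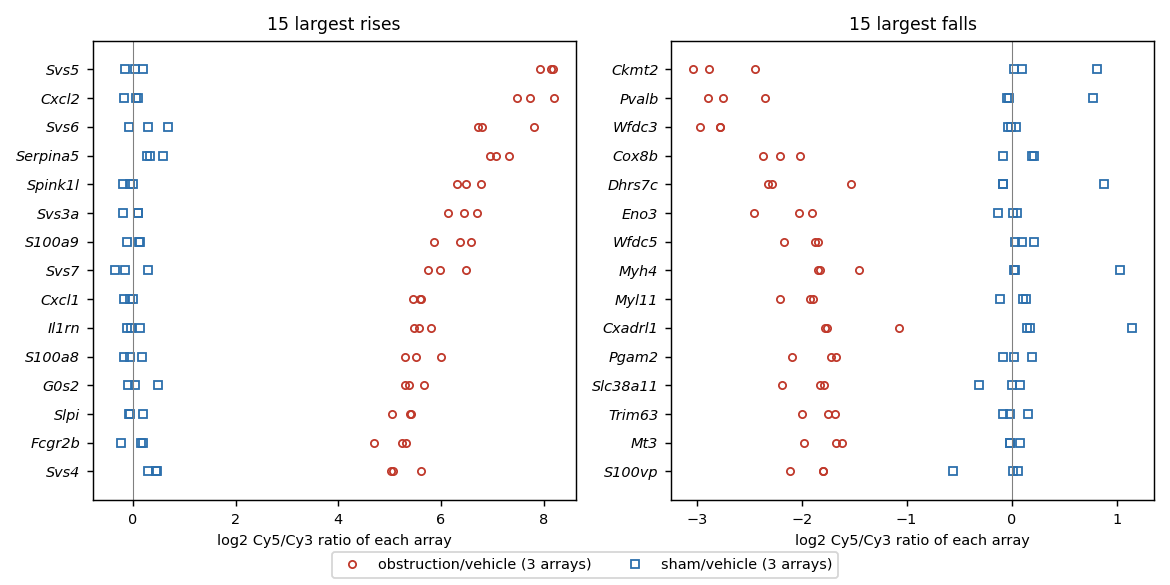
Log2 Cy5/Cy3 ratio of each of the 3 obstruction/vehicle arrays (circles) and 3 sham/vehicle arrays (squares) for the 15 genes with the largest rises and the 15 with the largest falls. The arrays of the groups do not overlap for any of these genes, which were chosen for their difference.

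The neutrophil-attracting chemokines stood among the largest rises. Cxcl2 and Cxcl1 encode ligands of the receptor CXCR2 that are made by activated macrophages, epithelium and stroma. Cxcl2 had log2 ratios of 7.49, 8.20 and 7.73 on the obstruction/vehicle arrays, against -0.18, 0.09 and 0.07 on the sham/vehicle arrays, a difference of 7.81 ± 0.16, or 225-fold (adjusted p = 2.61e-11 by limma; rn3 chromosome 14, 18677236 to 18677295). Cxcl1 had 5.60, 5.61 and 5.46 in obstruction/vehicle and -0.18, -0.05 and -0.01 in sham/vehicle, a 49.7-fold difference (5.63 ± 0.11, adjusted p = 1.08e-11 by limma; chromosome 14, 18690468 to 18690527). Both were above 5 on every obstruction/vehicle array, and Cy5 alone gave 9.70 for Cxcl2 and 6.79 for Cxcl1. Of 10 measured genes of neutrophil-attracting chemokines and their receptors, 8 were higher and 0 lower, with a median of 1.22. Pf4, a platelet and monocyte chemokine, rose by 2.13 ± 0.11, and the receptor gene Cxcr2 by 0.37 ± 0.10, a call that was lost with median centring and with only the 6 arrays compared.

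Cxcl3, another ligand of CXCR2, had 2 probes under its name that moved opposite ways. The brighter one rose by 3.98 ± 0.17 and the other fell by 0.58 ± 0.10, each with adjusted p under 0.05 by limma. The brighter probe had a Cy3 level higher by 2.92 on the obstruction/vehicle arrays, and its Cy5 alone gave 6.91. Their sequences are shown because the sign of the result rests on which one is read. The probes lie at separate positions on chromosome 14. Whether both read Cxcl3 was not tested, so the fall may not belong to this gene.
Cxcl3 brighter probe (A_44_P363116, rn3 chr14:18786864-18786923): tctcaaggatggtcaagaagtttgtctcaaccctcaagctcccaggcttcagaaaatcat
Cxcl3 other probe (A_44_P255029, rn3 chr14:18767637-18767696): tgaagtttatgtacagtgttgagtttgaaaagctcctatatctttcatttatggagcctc

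The promoters of Cxcl1, Cxcl2 and Il1rn held the letters of an NF-kappaB site. NF-kappaB is the transcription factor that cytokine and Toll-like receptor signals release into the nucleus. The letters GGG, any 2 bases and TTTCC were searched on both strands of the windows from 250 bases before to 50 after the gene start, in RefSeq promoters of build GRCr8. Of the 25 genes with the largest rises, 19 had a window and 3 held the letters, against 1 of 23 for the largest falls and 414 of 27457 promoters in all (1.51%). Letters for AP-1 (TGANTCA) were in 1 of the 19, for STAT3 (TTCNNNGAA) in 2 and for the hypoxia response (ACGTG) in 3, against 7.33%, 8.68% and 19.7% of all promoters. A match describes the letters only. Cxcl1 and Cxcl2 are related genes that lie close together on chromosome 14, so 2 of the 3 matches are not independent. The 3 windows are printed 5′ to 3′ on the gene's strand, with the matches in capitals.
Cxcl1 (GRCr8, chr14:17479272-17479571, minus strand): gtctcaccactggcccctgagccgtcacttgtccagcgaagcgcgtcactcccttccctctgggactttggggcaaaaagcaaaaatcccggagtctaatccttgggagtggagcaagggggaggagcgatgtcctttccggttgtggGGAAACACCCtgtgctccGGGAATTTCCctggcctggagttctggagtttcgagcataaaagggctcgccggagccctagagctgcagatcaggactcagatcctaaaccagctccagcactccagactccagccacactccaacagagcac
Cxcl2 (GRCr8, chr14:17467206-17467505, minus strand): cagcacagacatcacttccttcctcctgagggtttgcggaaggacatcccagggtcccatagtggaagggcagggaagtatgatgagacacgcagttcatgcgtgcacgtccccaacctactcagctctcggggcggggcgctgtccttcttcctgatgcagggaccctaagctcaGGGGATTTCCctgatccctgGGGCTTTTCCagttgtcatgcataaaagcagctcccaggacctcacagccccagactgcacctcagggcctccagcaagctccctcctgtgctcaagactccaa
Il1rn (GRCr8, chr3:27520072-27520371, plus strand): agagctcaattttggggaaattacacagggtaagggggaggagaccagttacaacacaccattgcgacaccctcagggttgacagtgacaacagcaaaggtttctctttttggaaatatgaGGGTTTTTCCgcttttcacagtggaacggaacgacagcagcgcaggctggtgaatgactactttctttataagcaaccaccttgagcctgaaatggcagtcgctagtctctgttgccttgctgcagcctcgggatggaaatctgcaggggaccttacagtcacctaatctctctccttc

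Chemokines for monocytes rose too. Ccl2, the main attractant of CCR2-bearing monocytes, had log2 ratios of 4.77, 4.99 and 4.96 in obstruction/vehicle and -0.01, 0.13 and 0.10 in sham/vehicle, a 28.4-fold difference (4.83 ± 0.13, adjusted p = 2.96e-10 by limma). Ccl6 rose by 3.90 ± 0.14 and Ccr1, a receptor of inflammatory chemokines, by 3.27 ± 0.14. The ratio of Ccl3, a macrophage chemokine, rose by 3.13 ± 0.11, while Cy5 alone gave 8.19 and its Cy3 level was higher by 5.06 on the obstruction/vehicle arrays. Of 28 measured genes of these chemokines and receptors, 16 were higher and 0 lower (median 0.54; 19 higher and 1 lower with the replicate block).

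RNA of the interleukin-1 system rose at several levels, from the cytokine to its antagonist and its decoy receptor. Il1b encodes interleukin-1 beta, which myeloid cells release after inflammasome cleavage, and was read by 2 probes. On the brighter probe the log2 ratios were 3.31, 3.97 and 3.92 in obstruction/vehicle and 0.07, -0.08 and -0.06 in sham/vehicle, and on the other probe 6.06, 6.45 and 6.40 in obstruction/vehicle and -0.11, 0.07 and 0.05 in sham/vehicle. The differences were 3.76 ± 0.16 and 6.30 ± 0.11, the same direction with unequal sizes. The net Cy3 intensities of the brighter probe were 3062, 2496 and 3077 on the obstruction/vehicle arrays and 99.3, 143 and 183 on the sham/vehicle arrays, although Cy3 carried the same RNA. From Cy5 alone the 2 probes gave 8.07 and 8.21.
Il1b brighter probe (A_44_P230320, rn3 chr3:116870289-116870348): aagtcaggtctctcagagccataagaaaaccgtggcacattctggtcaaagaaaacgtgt
Il1b other probe (A_43_P14911, rn3 chr3:116870038-116870097): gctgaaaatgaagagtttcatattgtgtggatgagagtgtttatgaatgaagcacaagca

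Il1rn, the soluble antagonist of the interleukin-1 receptor, had 5.81, 5.57 and 5.47 in obstruction/vehicle and 0.15, -0.12 and -0.04 in sham/vehicle, a 49.2-fold difference (5.62 ± 0.19, adjusted p = 8.84e-10 by limma). Il1r2, the decoy receptor, rose by 3.63 ± 0.18, and Tnfrsf1b, the second receptor of tumour necrosis factor, by 4.53 ± 0.17. Cy5 alone gave 6.97 for Il1rn, 5.39 for Il1r2 and 6.39 for Tnfrsf1b. Il6 had 1.82, 2.11 and 2.09 in obstruction/vehicle and -0.03, -0.06 and 0.00 in sham/vehicle (2.04 ± 0.09, adjusted p = 1.08e-08 by limma). Tnf itself had -0.01, 0.06 and -0.03 in obstruction/vehicle and -0.13, -0.11 and -0.15 in sham/vehicle and did not pass the test (0.14 ± 0.08, adjusted p = 0.262 by limma), although the scanner software's ratio called it. Over the interleukin-1, interleukin-6 and TNF families, 19 of 27 measured genes were higher and 0 lower, with a median of 1.11 (19 higher and 2 lower with the replicate block).

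Feedback and early response genes of these pathways rose together. Nfkbia, the inhibitor that NF-kappaB induces against itself, rose by 2.46 ± 0.13 (adjusted p = 4.94e-08 by limma), Birc3 by 2.65 ± 0.22 and Socs3, which dampens STAT3 signalling, by 1.38 ± 0.24. The receptors Tlr2 and Cd14, which sense bacterial lipids, rose by 2.19 and 1.81. Of 21 measured genes of NF-kappaB feedback and Toll-like receptors, 16 were higher and 0 lower (median 1.01).

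Among immediate early and stress transcription factors 20 of 26 were higher and 0 lower (median 1.07). Cebpd, an acute-phase regulator, had 3.48, 3.67 and 3.67 in obstruction/vehicle and 0.13, 0.11 and 0.07 in sham/vehicle. Atf3 rose by 3.13 ± 0.16, Junb by 2.76 ± 0.12, Egr1 by 1.81 ± 0.09 and Fos by 1.31 ± 0.21. Myc, the growth regulator, gave 0.28 ± 0.11 and did not pass the test (adjusted p = 0.0897 by limma), but passed with the replicate number as a block (adjusted p = 0.0124 by limma). The counts were 13 higher and 0 lower with median centring.

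Interferon response genes rose in part. Ifit1, an antiviral effector, rose by 4.13 ± 0.20 on its brightest probe (5.47 from Cy5 alone), Isg15 by 2.18 ± 0.18 and the transcription factor Irf1 by 1.81 ± 0.31, whereas Isg20, a ribonuclease, fell by 1.03 ± 0.26, a call lost without obstruction/vehicle replicate 2 or 3. Of 23 measured genes 11 were higher and 1 lower, with a median of 0.36.

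Macrophage genes rose as a nearly complete set. Of 27 measured macrophage and monocyte genes, 26 were higher, 24 of them at least 2-fold, and 0 were lower, with a median of 2.17. Fcgr2b, an inhibitory immunoglobulin receptor, had log2 ratios of 4.69, 5.25 and 5.32 in obstruction/vehicle and -0.23, 0.16 and 0.19 in sham/vehicle, a 33.0-fold difference (5.05 ± 0.21, adjusted p = 4.28e-09 by limma). Its probe and that of its relative Fcgr2a (4.33 ± 0.28) may share sequence between paralogs, so their separate sizes are uncertain. Cd68, a lysosomal protein of macrophages, rose by 2.19 ± 0.12, Gpnmb by 4.06 ± 0.25, the adhesive glycoprotein gene Spp1 by 2.45 ± 0.10 and Cd163, the haemoglobin scavenger receptor, by 1.15 ± 0.18. Cy5 alone gave 6.20 for Fcgr2a and 5.71 for Gpnmb.

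**Figure D4:**
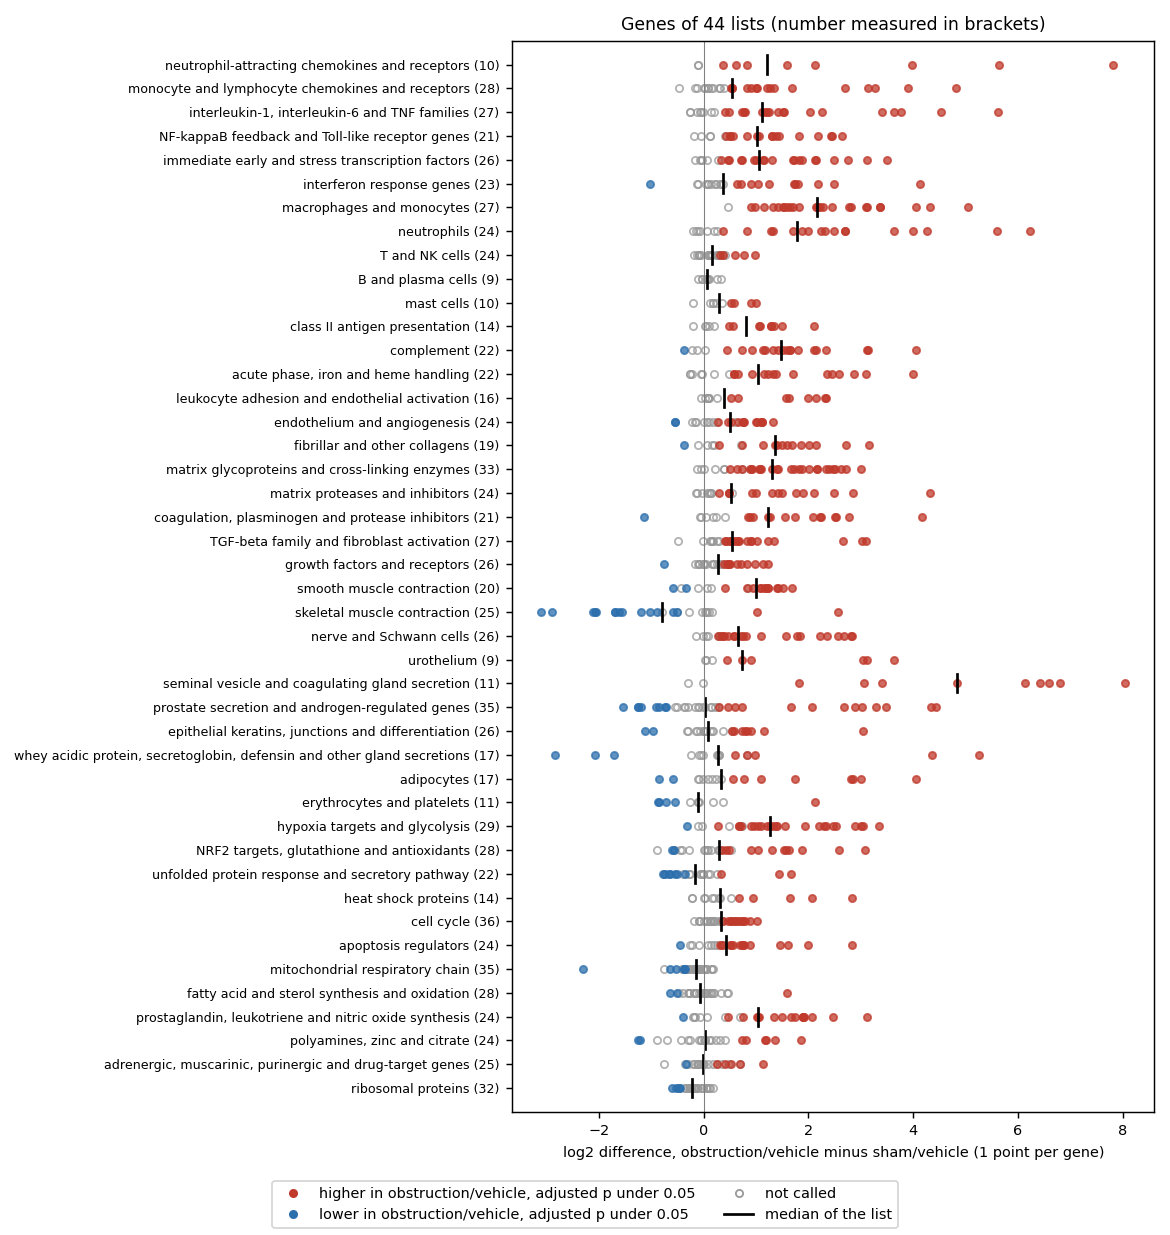
Log2 difference (obstruction/vehicle minus sham/vehicle) of every measured gene of 44 lists, 1 point per gene, filled where adjusted p was under 0.05, with a bar at each list's median. The macrophage median is 2.17 and the seminal vesicle median 4.83 (8.68 from Cy5 alone), while the skeletal muscle median is -0.79 and the ribosomal median -0.23.

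Neutrophil genes rose as well, led by the calprotectin subunits. S100a9 had 5.86, 6.59 and 6.37 in obstruction/vehicle and -0.12, 0.13 and 0.14 in sham/vehicle, a 74.9-fold difference (6.23 ± 0.17, adjusted p = 2.33e-10 by limma; chromosome 2, 182937753 to 182937812 on rn3). S100a8, its partner, had 5.99, 5.51 and 5.30 in obstruction/vehicle and 0.19, -0.17 and -0.05 in sham/vehicle. No sham/vehicle array had S100a8 well above background, so its Cy5 level, normalized by loess and Aquantile, was at least 372-fold higher in obstruction/vehicle (adjusted p = 6.12e-10 by limma for the ratio). Such bounds come from Cy5 alone and are open to dye bias, since no dyes were swapped. The log2 difference from Cy5 alone was 7.91 for S100a9 and 8.57 for S100a8.

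Lcn2, the iron-sequestering lipocalin of neutrophils and injured epithelium, rose by 4.00 ± 0.20 (6.47 from Cy5 alone) and Mmp9, a gelatinase, by 2.49 ± 0.09. Of 24 neutrophil genes 17 were higher and 0 lower (median 1.79). Mpo, made by neutrophil precursors, had 0.22, -0.40 and -0.26 in obstruction/vehicle and 0.37, -0.19 and -0.16 in sham/vehicle and did not pass the test (-0.15 ± 0.22, adjusted p = 0.714 by limma).

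Of 24 measured T and NK cell genes 5 were higher, 0 of them 2-fold, and 0 lower, beside 15.5% of all genes higher, and their median was 0.16. The counts were 2 higher and 0 lower with median centring, 10 higher and 0 lower with the replicate block, 2 higher and 0 lower with normexp fitted on every spot, 3 and 0 without sham/vehicle replicate 3. Cd8a, the coreceptor of cytotoxic T cells, had 1.12, 0.76 and 0.95 in obstruction/vehicle and -0.00, -0.16 and 0.02 in sham/vehicle (0.99 ± 0.13, adjusted p = 8.77e-05 by limma), and Gzma, a granule protease, rose by 0.78 ± 0.09. Cd3e, the shared T cell receptor chain, gave -0.12 ± 0.12 and was well above background on 2 of 3 arrays in each group. Of 9 B and plasma cell genes 0 passed the test in limma, 1 had an unadjusted p under 0.05 and 1 was called with the block. The mast cell proteases Cma1 and Cpa3 rose by 0.91 ± 0.13 and 0.52 ± 0.11, calls that median centring ended, as it did that of Gzma, within 4 of 10 mast cell genes (1 higher and 0 lower with median centring, 2 higher and 0 lower with normexp fitted on every spot).

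Genes of antigen presentation, complement and the acute phase rose in part, and 8 of 16 adhesion genes were higher and 0 lower. The class II chain RT1-Da rose by 1.34 ± 0.12, the invariant chain Cd74 by 1.29 ± 0.10 and cathepsin S (Ctss), which trims it, by 2.10 ± 0.18, and 9 of 14 class II genes were higher and 0 lower (4 higher and 0 lower with median centring, 9 higher and 1 lower with the replicate block; median centring ended the calls of RT1-Da and Cd74). Icam1 and Vcam1, the endothelial ligands of leukocyte integrins, rose by 1.63 ± 0.08 and 1.58 ± 0.11, while the selectins Sele (-0.05 ± 0.13) and Selp (0.02 ± 0.09) did not pass the test. Among complement genes 18 of 22 were higher and 1 lower (median 1.47). C3, the hub of the cascade, had 2.98, 3.15 and 3.16 in obstruction/vehicle and -0.12, 0.01 and -0.03 in sham/vehicle (3.14 ± 0.09, adjusted p = 3.44e-10 by limma; 4.19 from Cy5 alone), and the anaphylatoxin receptor gene C5ar1 rose by 3.12 ± 0.21. Cd59b, which blocks the membrane attack complex, fell by 0.38 ± 0.10, a call lost with median centring, with only the 6 arrays compared and without sham/vehicle replicate 1. Of the acute phase, iron and heme list 15 of 22 were higher and 0 lower, Hp (haptoglobin) by 3.10 ± 0.13 and A2m, the broad protease inhibitor, by 1.38 ± 0.09 (16 higher and 3 lower with the replicate block).

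Enzymes that make prostaglandins and nitric oxide rose together. Ptgs2, the inducible cyclooxygenase, had 1.87, 2.26 and 2.18 in obstruction/vehicle and 0.10, -0.02 and 0.00 in sham/vehicle, a 4.22-fold difference (2.08 ± 0.10, adjusted p = 2.29e-08 by limma). Ptges, the terminal prostaglandin E synthase, rose by 1.89 ± 0.10 and the secreted phospholipase gene Pla2g2a by 1.91 ± 0.14. Nos2, which makes nitric oxide in activated macrophages, rose by 1.67 ± 0.11, Gch1, which makes its cofactor, by 3.11 ± 0.13, and Arg1, which competes for the same substrate, by 2.48 ± 0.13. Ptgds, the prostaglandin D synthase, fell by 0.39 ± 0.09, a call that median centring ended. In all, 16 of 24 genes were higher and 1 lower (median 1.05; 18 higher and 2 lower with the replicate block).

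Extracellular matrix genes rose across structural proteins, cross-linking enzymes and protease inhibitors. Col1a1, a chain of type I collagen, had 3.40, 2.96 and 2.93 in obstruction/vehicle and -0.04, -0.04 and -0.09 in sham/vehicle, an 8.91-fold difference on its brightest probe (3.16 ± 0.17, adjusted p = 4.55e-08 by limma; chromosome 10, 83652547 to 83652606 on rn3), with smaller rises on 2 other probes. Col3a1 rose by 2.72 ± 0.20 and Col1a2 by 2.14 ± 0.12. Of 19 collagens 13 were higher and 1 lower (median 1.36), and of 33 matrix glycoprotein and cross-linking genes 26 were higher and 0 lower (median 1.31). Fn1 (fibronectin) rose by 2.72 ± 0.17, Bgn (biglycan) by 3.01 ± 0.21, Postn (periostin) by 2.17 ± 0.21 and Lox, which cross-links collagen, by 2.17 ± 0.12.

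Timp1, an inhibitor of metalloproteinases, had 4.54, 4.61 and 4.54 in obstruction/vehicle and 0.42, 0.16 and 0.13 in sham/vehicle, a 20.1-fold difference (4.33 ± 0.11, adjusted p = 8.97e-11 by limma). Of 24 proteases and inhibitors 14 were higher and 0 lower, and Mmp7, an epithelial matrilysin, gave -0.13 ± 0.10 and did not pass the test. Plaur, the urokinase receptor, rose by 2.53 ± 0.12, whereas Tfpi, the inhibitor that starts the brake on clotting, fell by 1.14 ± 0.10 on its brighter probe, a call that median centring ended. Ccn2, a matricellular target of TGF-beta, rose by 2.66 ± 0.18, Tgfbi by 3.03 ± 0.22 and Tgfb1 itself by 0.56 ± 0.10. Within the TGF-beta list 18 of 27 genes were higher and 0 lower (21 higher and 1 lower with the replicate block, 9 higher and 0 lower with normexp fitted on every spot). Of the growth factor and receptor genes 11 of 26 were higher and 1 lower (2 higher and 0 lower with median centring, 7 higher and 0 lower with normexp fitted on every spot, 7 and 1 without sham/vehicle replicate 2). Igf1 rose by 0.84 ± 0.14 on its brightest of 4 probes, Areg, an EGF receptor ligand, by 1.23 ± 0.11, and Fgf1 fell by 0.76 ± 0.12. Median centring ended the calls of Tgfb1, Igf1 and Fgf1.

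In the smooth muscle, nerve and endothelial lists more genes were higher than lower. Actg2, the enteric and urogenital smooth muscle actin, had 1.33, 1.97 and 1.97 in obstruction/vehicle and 0.04, 0.02 and 0.14 in sham/vehicle (1.69 ± 0.16, adjusted p = 7.25e-06 by limma). Des (desmin) rose by 1.53 ± 0.16 and Myh11, the smooth muscle myosin, by 1.23 ± 0.13, within 13 of 20 genes higher and 2 lower (7 higher and 0 lower with median centring; with median centring Actg2 and Myh11 lost the call). Kcnmb1, the calcium-activated potassium channel subunit of smooth muscle, fell by 0.58 ± 0.10, a call lost with median centring and with Cy5 alone.

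Nerve genes included Vip, the neuropeptide of parasympathetic fibres, with 2.35, 2.87 and 2.98 in obstruction/vehicle and -0.09, 0.16 and 0.09 in sham/vehicle (2.68 ± 0.17, adjusted p = 1.95e-07 by limma). Prph (peripherin) rose by 2.84 ± 0.11 and Uchl1, a neuronal hydrolase, by 2.56 ± 0.18. Prph also differed between the other pools. Its net Cy5 was 2441, 11497 and 12029 in obstruction/vehicle and 224, 850 and 919 in sham/vehicle. In sham/Eviprostat it was 958, 6094 and 6118, and in obstruction/Eviprostat 660, 3518 and 3491. Of 26 nerve and Schwann cell genes 20 were higher and 0 lower (median 0.66; 13 higher and 0 lower with normexp fitted on every spot). The endothelial list had 13 of 24 higher and 2 lower (10 higher and 0 lower with median centring, 6 higher and 2 lower with normexp fitted on every spot, 7 and 2 without sham/vehicle replicate 2, 7 and 2 without sham/vehicle replicate 3). Kdr, the main VEGF receptor, rose, with 1.46, 0.93 and 0.98 in obstruction/vehicle and 0.12, -0.02 and -0.02 in sham/vehicle (adjusted p = 0.00309 by limma). Cdh5, the endothelial cadherin, fell by 0.54 ± 0.10, a call lost with median centring and with Cy5 alone, and Pecam1 did not pass the test (0.11 ± 0.09).

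Of 25 measured skeletal muscle genes, fast and slow, 14 fell, 11 of them at least 2-fold, and 2 rose (median -0.79; 2 higher and 7 lower with median centring). Ckmt2, the sarcomeric mitochondrial creatine kinase, had log2 ratios of -2.44, -2.89 and -3.03 in obstruction/vehicle and 0.81, 0.10 and 0.03 in sham/vehicle, the largest fall of the named genes at -3.10 ± 0.27 (8.57-fold lower, adjusted p = 3.31e-06 by limma; chromosome 2, 22004725 to 22004784 on rn3). Pvalb, the calcium buffer of fast fibres, had -2.35, -2.75 and -2.89 in obstruction/vehicle and 0.77, -0.04 and -0.03 in sham/vehicle (-2.90 ± 0.27, adjusted p = 5.25e-06 by limma). Both were highest on replicate 1 within each group, and the groups did not overlap.

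The fast myosin Myh4 gave -2.07 ± 0.24, the muscle enolase Eno3 -2.10 ± 0.13 and the muscle creatine kinase Ckm -1.62 ± 0.12, and all 3 passed the test, Ckm not with median centring. In contrast Myh7, the slow and cardiac myosin, rose by 2.57 ± 0.15 and Tnnt1, the slow troponin T, by 1.02 ± 0.19. Acta1, the skeletal actin, had 0.52, 0.07 and -0.07 in obstruction/vehicle and 0.77, -0.17 and -0.21 in sham/vehicle and did not pass the test (0.04 ± 0.29, adjusted p = 0.948 by limma). The amount of fast muscle RNA also differed between the other pools: net Cy5 of Pvalb was 190.0, 620.2 and 578 in obstruction/vehicle and 1689, 4180 and 4571 in sham/vehicle, 812, 2119 and 2183 in obstruction/Eviprostat and 6107, 16845 and 17521 in sham/Eviprostat.

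Prostate secretion and androgen-regulated genes went both ways. Msmb had -1.38, -0.84 and -0.83 in obstruction/vehicle and 0.64, 0.42 and 0.50 in sham/vehicle (-1.54 ± 0.14, adjusted p = 5.50e-06 by limma). Pbsn (probasin), an androgen-driven secretory protein of the rat prostate, had -1.08 and -1.05 on the 2 obstruction/vehicle arrays where its spot was usable and 0.10, 0.27 and 0.22 in sham/vehicle (-1.26 ± 0.12, adjusted p = 1.15e-05 by limma). For both, Cy3 was higher on the obstruction/vehicle arrays, by 0.76 and 0.66, and Cy5 alone gave -0.79 and -0.60. With median centring neither kept its call.

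Foxa1 and Hoxb13, transcription factors of prostate epithelium, fell by 1.11 ± 0.15 and 0.97 ± 0.22, and Foxa1 lost its call with median centring. The kallikreins Klk1c9 (3.48 ± 0.12, and 4.70 from Cy5 alone) and Klk1c2 (3.29 ± 0.17) and the secretory genes Scgb1d2 (4.43 ± 0.10) and Crisp3 (4.34 ± 0.17) rose, though the kallikreins belong to a family of near-identical copies whose members the probes may not separate. In all 13 of 35 prostate secretion and androgen-regulated genes were higher and 8 lower, with a median of 0.02 (9 higher and 2 lower with median centring, 15 higher and 13 lower with the replicate block).

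The luminal keratins Krt8 and Krt18 gave 0.38 ± 0.24 and -0.14 ± 0.14 and did not pass the test (Krt8 adjusted p = 0.329 by limma, and 0.0121 with the replicate block). The basal keratins Krt5 and Krt14 rose by 0.91 ± 0.13 and 0.73 ± 0.10, calls that median centring ended. Cdh1, the epithelial cadherin, gave 0.03 ± 0.11 and did not pass the test. Over keratins, junctions and differentiation genes 8 of 26 were higher and 2 lower (median 0.08), beside 15.5% and 8.83% of all genes. The counts were 3 higher and 1 lower with median centring, and 10 higher and 4 lower with the replicate block.

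Among whey acidic protein and other gland secretions the changes were split. Slpi, the secretory leukocyte protease inhibitor, had 5.05, 5.39 and 5.41 in obstruction/vehicle and 0.21, -0.08 and -0.05 in sham/vehicle, a 38.3-fold rise (5.26 ± 0.12, adjusted p = 3.99e-11 by limma), and Wfdc21 rose by 4.36 ± 0.20. Cy5 alone gave 7.24 for Slpi and 6.89 for Wfdc21. Wfdc3, of the same domain family, had -2.97, -2.78 and -2.78 in obstruction/vehicle and 0.04, -0.01 and -0.03 in sham/vehicle (7.18-fold lower, -2.84 ± 0.10, adjusted p = 1.80e-09 by limma). Wfdc5 and Wfdc18 also passed the test, at -2.08 ± 0.12 and -1.70 ± 0.15. Of 17 genes 5 were higher and 3 lower (8 higher and 4 lower with the replicate block, 3 higher and 3 lower with normexp fitted on every spot). Other genes among the largest falls included Mt3, a metallothionein (-1.77 ± 0.10), Slc2a5, a fructose transporter (-1.70 ± 0.17), and Slc39a10, a zinc importer (-1.57 ± 0.13). Median centring ended the calls of Wfdc18, Slc2a5 and Slc39a10.

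The ratio difference of the seminal vesicle gene Svs4 rests mostly on the Cy3 channel. It gave a ratio difference of 4.83 ± 0.16, but its net Cy3 intensity was 12083, 5904 and 6054 on the obstruction/vehicle arrays, against 169467, 123915 and 126880 on the sham/vehicle arrays. Its Cy5 was saturated on 2 of 3 obstruction/vehicle and 1 of 3 sham/vehicle arrays, and Cy5 alone gave 0.63 without a call, a value limited by the saturated spots.

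Low-oxygen and glycolysis genes rose widely. Slc16a3, the lactate exporter, had 3.10, 3.46 and 3.39 in obstruction/vehicle and -0.28, 0.13 and 0.04 in sham/vehicle, a 10.2-fold difference (3.35 ± 0.14, adjusted p = 6.41e-09 by limma). Slc2a1, the basal glucose transporter, rose by 2.33 ± 0.08, Ldha (lactate dehydrogenase) by 2.21 ± 0.08, Adm (adrenomedullin) by 2.88 ± 0.09 and Ndrg1 by 3.01 ± 0.17 on its brighter probe. Of 29 genes 24 were higher and 1 lower (median 1.27; 14 higher and 0 lower with median centring). Vegfa, a classic target of the pathway, rose by 0.28 ± 0.08 on its brighter probe, a call lost with median centring, with Cy5 alone, and without sham/vehicle replicate 1 or 3 or obstruction/vehicle replicate 2 or 3.

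Antioxidant genes changed in part. Hmox1 (heme oxygenase) had 2.58, 2.69 and 2.68 in obstruction/vehicle and 0.15, 0.03 and 0.01 in sham/vehicle (2.59 ± 0.09, adjusted p = 8.84e-10 by limma; 3.90 from Cy5 alone), and Sod2, the mitochondrial superoxide dismutase that NF-kappaB induces, rose by 3.08 ± 0.18. Nqo1, a defining NRF2 target, gave 0.09 ± 0.09 and did not pass the test, and the glutathione transferase genes Gsta2 and Gstm2 fell by 0.56 ± 0.13 and 0.61 ± 0.12, calls that median centring ended. The list had 12 of 28 higher and 2 lower (16 higher and 7 lower with the replicate block, 14 and 4 without obstruction/vehicle replicate 1).

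Stress of the secretory pathway showed a divided pattern. Ddit3 and Trib3, which mark the PERK branch, rose by 1.43 ± 0.10 and 1.67 ± 0.16, while Ern1, the sensor IRE1, fell by 0.77 ± 0.17 and the chaperone factor Manf by 0.74 ± 0.12, also calls that median centring ended. Hspa5, the chaperone BiP, gave -0.39 ± 0.33 (adjusted p = 0.482 by limma, and 0.00390 with the block). Of 22 genes 3 were higher and 7 lower (2 higher and 1 lower with median centring, 4 higher and 11 lower with the replicate block, 2 and 4 without sham/vehicle replicate 2). The heat shock genes Hspa1a and Cryab rose by 2.83 ± 0.12 and 2.07 ± 0.14, within 5 of 14 higher and 0 lower (3 higher and 0 lower with median centring, 8 higher and 0 lower with the replicate block).

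Mcm3, a subunit of the replicative helicase, had 0.59, 0.98 and 1.17 in obstruction/vehicle and -0.22, 0.00 and -0.12 in sham/vehicle (1.02 ± 0.16, adjusted p = 3.71e-04 by limma), and Cdk1, the mitotic kinase, rose by 0.60 ± 0.09. Cdkn1a, the p21 inhibitor, rose by 0.75 ± 0.08, and the calls of all 3 were lost with median centring. Mki67 gave 0.11 ± 0.12 and did not pass the test. In the cell cycle list 12 of 36 were higher and 0 lower (median 0.33; 5 higher and 0 lower with median centring, 21 higher and 0 lower with the replicate block, 7 and 0 without obstruction/vehicle replicate 2). Among regulators of apoptosis 14 of 24 were higher and 1 lower (7 higher and 0 lower with median centring, 8 higher and 0 lower with normexp fitted on every spot), including Bcl2a1 (2.83 ± 0.15), a survival gene of leukocytes, and Casp1 (1.60 ± 0.19), the protease that cleaves interleukin-1 beta.

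Of 35 respiratory chain genes 0 were higher and 6 lower, beside 8.83% of all genes lower (0 higher and 2 lower with median centring, 0 higher and 13 lower with the replicate block, 0 and 2 without sham/vehicle replicate 3), led by Cox8b, a muscle-type subunit, at -2.30 ± 0.13 on its brightest of 3 probes only. Of 32 ribosomal protein genes 4 were lower and 0 higher (median -0.23; 0 higher and 0 lower with median centring, 0 higher and 14 lower with the replicate block), and of 28 fatty acid and sterol genes 1 was higher and 2 were lower (1 higher and 0 lower with median centring, 5 higher and 6 lower with the replicate block). Polyamine genes, typical of prostate secretion, were split: Sat1, which acetylates spermidine, rose by 1.85 ± 0.31 and Smox, the spermine oxidase, by 1.18 ± 0.13, Amd1, which supplies decarboxylated S-adenosylmethionine, fell by 1.21 ± 0.33 (a call lost without sham/vehicle replicate 1 or obstruction/vehicle replicate 2 or 3), and Odc1, the first enzyme of the pathway, gave 0.02 ± 0.23. The zinc exporter gene Slc30a2 fell by 1.24 ± 0.20, and median centring ended the calls of Smox and Slc30a2. In that list 6 of 24 were higher and 2 lower, beside 15.5% and 8.83% of all genes. The counts were 7 higher and 7 lower with the replicate block, and 6 and 4 without obstruction/vehicle replicate 1.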

How the data were processed

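The authors deposited, for Cy5 and Cy3, the intensity of each spot and of its local background from Agilent Feature Extraction (9.5.1.1 in the submitters' processing notes), and a log10 ratio of red over green processed signal, which served as an alternative; the series' value table held the same log10 ratios (correlation 1.0 on every array). Positions are those of rat build rn3, per the file headers, and whether a probe lies in an exon or UTR was not used here. Background was corrected with normexp (offset 50) and log2 ratios were normalized within arrays by loess (limma 3.58.1, statmod 1.5.0, data.table version 1.17.8, R 4.3.3; tables and figures with Python 3.11.15, pandas 2.3.3 and matplotlib 3.10.9). The normexp model was fitted on spots without an outlier flag. This was chosen after seeing the files: fitted on every spot, its Cy3 background mean was -393.2 on obstruction/vehicle replicate 2, against 50.9 on unflagged spots. Control and flagged spots were left out, spots of 1 probe averaged, and 36102 of 41012 probes kept that were well above background in Cy5 on at least 3 of 12 arrays. Of all probes, 10802 were named by accession through the GRCr8 annotation, 5544 by current symbol, 3711 by synonym, 3351 by the array's own symbol, and 17604 stayed unnamed.

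Differences were tested with limma (lmFit, eBayes) over the 12 arrays, fitting a mean for each of the 4 groups (8 residual degrees of freedom), with Benjamini-Hochberg adjustment at 0.05. The brightest kept probe stood for a gene, and 3712 genes had several. Genes named are the 25 largest rises and falls called and of 1 sign on all 3 slides, key genes of the lists, and the 4 largest rises and 2 largest falls per list. Members and lists were chosen with earlier results of these data known. Replicate numbers follow the slide per the file headers, and same-numbered deviations from the group means correlated at 0.69, 0.57 and 0.53, so the numbers were taken to pair the arrays, although replicates 2 and 3 also correlated across groups (0.53 and 0.51), with slide 1 apart. The blocked value stands beside a named gene whose call it changed and beside a list whose count it moved by over 1.5 times or off 0. The tests were first tried on simulated data with known changes and independent noise on each array. That trial held no slide effect, so it cannot show how the tests behave under the correlations above. Precision is limited by the number of arrays. Some genes are not reported here.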

Additional observations from a re-analysis of the deposited data

How the results depend on the processing

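Probes called higher numbered 4631, against 2573 with median centring in place of loess, 7468 with the replicate block, 7093 with the block on the 6 arrays alone, 9144 on slides 2 and 3 alone and 2583 with normexp fitted on every spot. Probes called lower numbered 3092, against 505 with median centring, 8553 with the scanner software's ratio, 6603 and 6002 with the block, 7274 on slides 2 and 3 and 1608 with normexp on every spot. At 2-fold or more, the scanner ratio called 2749 higher and 1158 lower, and median centring 103 and normexp on every spot 164 lower, against 1677 and 276. Leaving out 1 replicate at a time gave 3632 to 5295 probes higher and 2173 to 3031 lower, and at 2-fold or more 1596 to 1831 higher and 271 to 295 lower. The scanner ratio, unlike the others, called more probes lower than higher. Slide 1 was dimmer than the others, and the cause of the added calls without it was not tested.

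Of 174 named genes, 40 lost their call with median centring, 12 with normexp on every spot, 6 with Cy5 alone, 6 with only the 6 arrays compared and 1 to 6 without 1 replicate, and 0 called genes turned direction under these settings. The replicate block added 4 calls and ended 0. A normexp offset of 16 ended 2, and no filter on dim probes ended 0. A count of calls moved by over 1.5 times and by 2 genes or more in 14 of 44 lists with the scanner ratio, 15 on slides 2 and 3 alone, 4 with Cy5 alone and 3 with only the 6 arrays compared; for median centring (20 lists), the block (15) and normexp on every spot (10) the counts stand beside the lists. The alternatives fitted on every spot, and with the block on 6 arrays, were chosen after seeing the data, as were the list counts under each setting. Dim genes in sham/vehicle are limited by signal over background, the pooling hides the spread between animals, and 6 arrays limit the precision.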

Other observations

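Fat genes were higher in obstruction/vehicle in a part of their list. Adipoq (adiponectin) had log2 ratios of 3.09, 2.91 and 2.89 in obstruction/vehicle and 0.03, -0.09 and -0.08 in sham/vehicle (3.01 ± 0.10, adjusted p = 8.84e-10 by limma). Cfd, the complement factor adipsin, rose by 4.06 ± 0.16, Fabp4, a lipid carrier of fat cells and macrophages, by 2.86 ± 0.15 and Retn (resistin) by 2.82 ± 0.24. Plin1, which coats lipid droplets, gave 0.09 ± 0.11 and Lep (leptin) -0.01 ± 0.09, neither past the test, and Cidea and Thrsp fell by 0.58 ± 0.11 and 0.86 ± 0.14, calls that median centring ended. Of 17 fat cell genes 8 were higher and 2 lower, beside 15.5% and 8.83% of all genes. With median centring 6 were higher and 0 lower. Hbb and Alas2, the erythroid heme enzyme, fell by 0.54 ± 0.15 and 0.86 ± 0.26, calls that were both lost with only the 6 arrays compared. Of 11 red cell and platelet genes 4 were lower and 1 higher, beside 8.83% and 15.5% of all genes. The counts were 1 higher and 1 lower with median centring, and 1 higher and 2 lower with normexp fitted on every spot.

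Chrm3, the muscarinic receptor of bladder contraction and gland secretion, had 1.06, 1.31 and 1.35 in obstruction/vehicle and 0.06, 0.19 and 0.07 in sham/vehicle (1.13 ± 0.12, adjusted p = 2.07e-05 by limma). Ednrb, an endothelin receptor, rose by 0.69 ± 0.12 and its ligand gene Edn1 by 0.53 ± 0.09, a call lost with median centring. Pde5a, the target of sildenafil, gave -0.35 ± 0.20, short of the test (adjusted p = 0.250 by limma, and 0.00138 with the replicate block). Srd5a2, the target of finasteride, rose by 0.47 ± 0.13, a call lost with only the 6 arrays compared. Of 25 receptor and drug-target genes of the lower urinary tract 5 were higher and 1 lower (9 higher and 4 lower with the replicate block, 1 higher and 1 lower with normexp fitted on every spot), beside 15.5% and 8.83% of all genes.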
